A study of Mus musculus with 10 samples.

Results

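The interleukin 1 family was followed here through 10 genes, chosen by name and matched by symbol to Ensembl gene identifiers, out of 28987 genes listed in each library. The members are the ligands Il1a, Il1b, Il18 and Il33, the receptor antagonist Il1rn, the IL-18 binding protein Il18bp, and the receptor chains Il1r1, Il1r2, Il1rap and Il1rl1. Their RNA was sequenced in cells from the inguinal fat of male C57BL/6 mice aged 6 to 8 weeks, dissociated with collagenase and dispase and then cultured until confluent. 5 groups of 2 libraries were made, and all groups were exposed for 24 h. One group received saline, one the recombinant TNF-family cytokine BAFF at 500 ng/ml, one recombinant APRIL, a related cytokine, at 500 ng/ml, one bacterial lipopolysaccharide (LPS) at 100 ng/ml and one norepinephrine at 1 mM. The labels call the source primary white adipocytes, while the treatment text speaks of white adipose tissue, and no differentiation step is given in the sources used here. The study title concerns BAFF and APRIL in weight gain, and LPS and norepinephrine stand among its further controls.

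IL-1α and IL-1β, made from Il1a and Il1b, bind the receptor IL-1R1, which then recruits the accessory chain IL-1RAP and signals through MyD88, IRAK kinases and NF-κB. IL-1Ra, from Il1rn, occupies the same receptor without recruiting the accessory chain, and IL-1R2 binds the ligands without signalling. IL-33 signals through ST2, the product of Il1rl1, paired with the same accessory chain, and IL-18 is held in check by IL-18BP. In adipose tissue, IL-1β from macrophages is known to impair insulin signalling and lipid storage in adipocytes, and adipose stromal cells are a known source of IL-33.

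Values are TPM, the relative abundance of a gene's transcripts within a library, corrected for transcript length. The files hold no read counts, so the depth behind a value is unknown and the spread between 2 libraries is the only error measured. The labels do not say whether replicates came from separate animals or cultures, so p-values measure the spread between these libraries only, which may be technical. Differences are in log2(TPM + 1) with their standard error, which understates the change of a gene with low TPM, and adjusted p-values are from limma with Benjamini-Hochberg adjustment over 14166 genes (those reaching 1 TPM in 2 libraries or more). A gene is called where that value is under 0.05. These are bulk libraries, in which fewer cells of a type and less RNA per cell cannot be told apart.

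Both libraries that carry the label APRIL lay away from the rest. Over the tested genes they correlated with the other libraries at 0.85 to 0.886, against 0.948 to 0.991 among the other 8, and their summed TPM of Y-linked genes was 0.489 and 0.775 against 93.8 to 123 elsewhere, although every library is labelled male. They are named below as the libraries labelled APRIL, their comparison with saline called 58.1% of all tested genes, and results of the other groups that changed without them are given with both values. Adipocyte markers summed to between 2297 and 14689 TPM, most of it Fabp4. Fibroblast and progenitor markers summed to between 1860 and 12533 TPM, most of it Col1a1 and Col3a1, so the cultures carried both. Endothelial markers summed to at most 18.2 TPM, lymphocyte markers to at most 9.79 TPM with Cd3g at 0 in every library, epithelial markers to at most 1.35 TPM and mesothelial markers to at most 23.5 TPM, most of it Krt19.

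The members lie in a few clusters of the mouse genome (GRCm38, mm10). On chromosome 1 the receptor genes Il1r2 (40074079 to 40125231), Il1r1 (40225080 to 40317257) and Il1rl1 (40429570 to 40465415) stand in a row on the plus strand. On chromosome 2 Il1a (129299610 to 129309972) and Il1b (129364570 to 129371139) lie on the minus strand with their starts 61167 bases apart, whereas Il1rn (24336853 to 24351494, plus strand) lies far away beside the interleukin 36 genes. Il18bp lies on chromosome 7 (102014885 to 102018690, minus strand), Il18 on chromosome 9 (50554827 to 50581840, plus strand), Il1rap on chromosome 16 (26581704 to 26730117, plus strand) and Il33 on chromosome 19 (29925114 to 29960718, plus strand). All 10 are protein-coding genes of GENCODE M21.

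Upstream sequence is shown for Il1a, Il1b and Il1rl1, 3 of the 4 members called in LPS against saline. The window of the remaining one, Il18bp, lies in an annotated untranslated region and is not printed. The 250 bases before each RefSeq start (GRCm38.p6) are printed 5′ to 3′ on the gene's own strand, with motif matches in capitals: TATAAA, the TATA box; TGANTCA, the site of AP-1; and TTGCNNAA, the core of C/EBP sites. Il1rl1 has 2 RefSeq starts, the second inside the gene, and both are shown because values per gene do not separate transcripts from either.
Il1a, chr2:129309973-129310222, minus strand: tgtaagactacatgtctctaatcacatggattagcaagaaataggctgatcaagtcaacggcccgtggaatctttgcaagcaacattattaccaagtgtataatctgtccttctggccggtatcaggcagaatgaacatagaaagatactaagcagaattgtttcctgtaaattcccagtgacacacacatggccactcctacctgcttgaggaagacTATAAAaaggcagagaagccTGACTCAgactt
Il1b, chr2:129371140-129371389, minus strand: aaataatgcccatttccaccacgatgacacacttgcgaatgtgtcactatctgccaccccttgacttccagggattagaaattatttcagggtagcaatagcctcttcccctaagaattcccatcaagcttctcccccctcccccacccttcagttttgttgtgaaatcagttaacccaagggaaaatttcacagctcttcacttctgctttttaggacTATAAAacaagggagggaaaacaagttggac
Il1rl1, first start, chr1:40429320-40429569, plus strand: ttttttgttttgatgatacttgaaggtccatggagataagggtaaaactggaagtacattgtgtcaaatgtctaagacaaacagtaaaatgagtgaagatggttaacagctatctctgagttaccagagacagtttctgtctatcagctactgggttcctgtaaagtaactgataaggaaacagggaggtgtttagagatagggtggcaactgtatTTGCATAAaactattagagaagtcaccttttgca
Il1rl1, second start, chr1:40439379-40439628, plus strand: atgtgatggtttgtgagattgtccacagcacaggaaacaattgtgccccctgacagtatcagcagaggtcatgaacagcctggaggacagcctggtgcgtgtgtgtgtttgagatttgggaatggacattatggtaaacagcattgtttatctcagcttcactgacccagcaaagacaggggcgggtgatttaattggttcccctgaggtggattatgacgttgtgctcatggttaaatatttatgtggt
Il1a and Il1b both held TATAAA at almost the same place, with its first base 32 and 31 bases before the start. Il1a also held an AP-1 site, TGACTCA, 12 bases before the start, a sequence that reads as a match on both strands. The first Il1rl1 start had TTGCATAA 34 bases upstream, and the second start had no match to these motifs. The Il18bp window had TTGCGGAA 49 bases before its start. Among all 32851 RefSeq promoter windows of 250 bases, searched on both strands, 12.4% held TATAAA, 6.75% TGANTCA and 9.56% TTGCNNAA. Of the 15 windows of the 10 members, 5 held TATAAA, 2 held TGANTCA and 4 held TTGCNNAA. An interferon-response motif, 2 runs of GAAA with 2 bases between them, was in 0 of the 15 and in 2.98% of all windows, and the NF-kB consensus was in 1 of the 15, at an Il1r1 start, and in 3.9% of all. The motifs were chosen after the expression values were known, and a match is a description of letters, not a bound site.

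Of the 10 members, 9 could be tested. Il18 was listed at 0 in all 10 libraries. A value of 0 here can be a failed estimate, since 4859 of the listed genes were at 0 throughout, Rps12 among them, a ribosomal protein gene, so no statement is made on whether Il18 is expressed. Il1a and Il1b passed the filter on low values through the LPS libraries alone, and 5 members (Il1rn, Il33, Il1r1, Il1rap and Il1rl1) were at 1 TPM or more in every library.

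With LPS, the 2 IL-1 agonist genes went from traces to clear expression, the IL-33 receptor gene Il1rl1 and the IL-18 inhibitor gene Il18bp rose with them, and the main IL-1 receptor gene and its antagonist gene gave no call. LPS against saline called 4 of the 9 tested members, all higher, where it called 3.80% of all tested genes (539 of 14166). The median difference of the 9 was 0.85 on the log2 scale, against -0.01 over all genes tested. Since Il1a and Il1b entered the test only through their LPS values, this count and median describe the 9 and support nothing beyond them. Norepinephrine called 0 of 9 members, beside 0.699% of all genes, and BAFF 0 of 9, beside 0.0141%, and limma p-values before adjustment were also above 0.05 for all 9 in each (0 called). At shares this low, 0 of 9 is no result about the members. The libraries labelled APRIL differed from saline in 3 of the 9 members, all lower, beside 58.1% of all genes. Beside so large a share, this count is no result about the members.

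**Figure D1:**
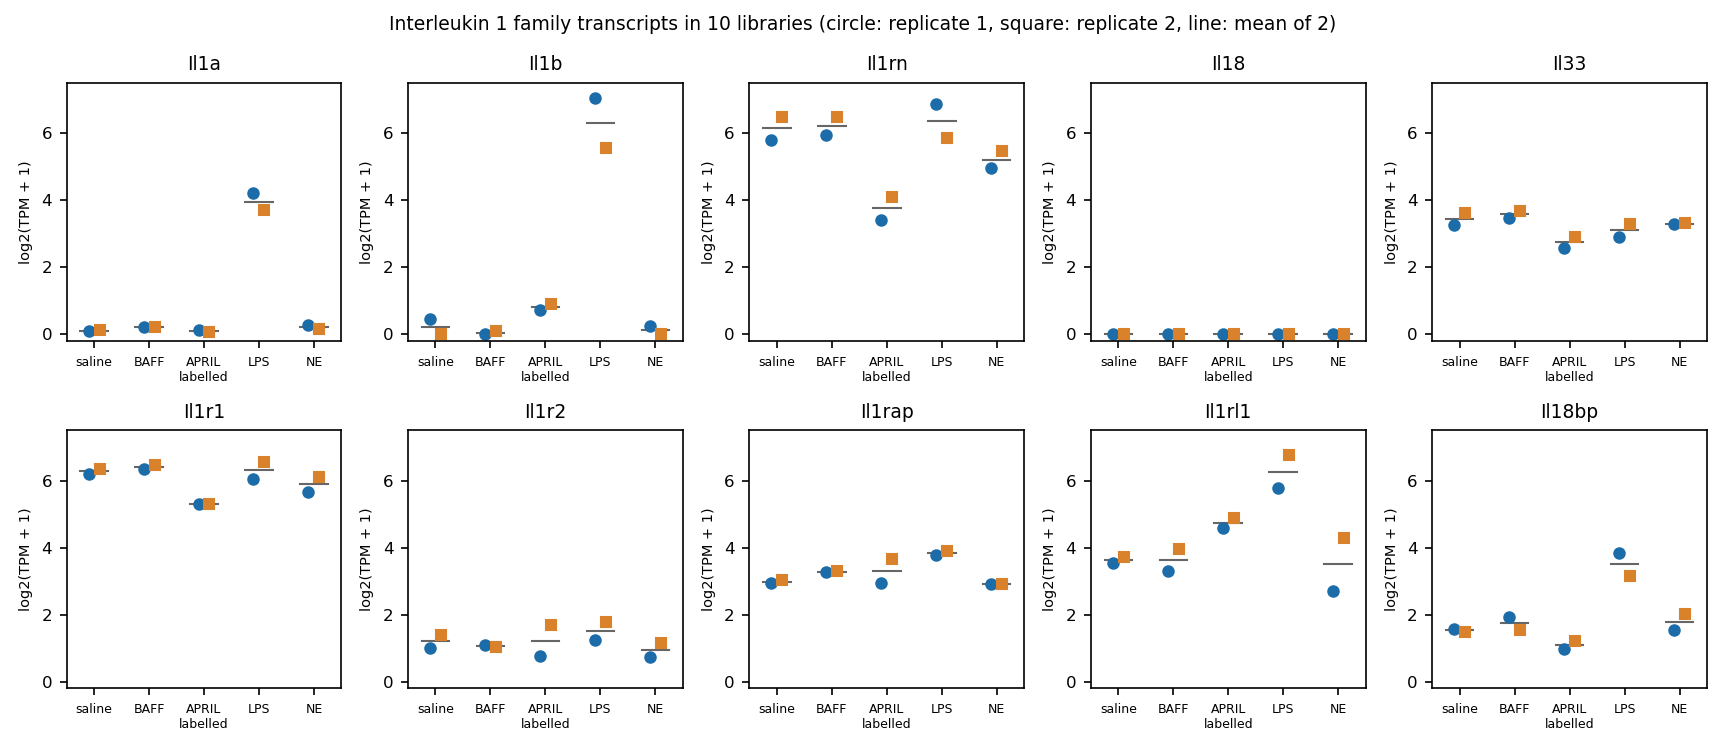
Level of each member in log2(TPM + 1) in each of the 10 libraries, by treatment; circles are replicate 1, squares replicate 2 and lines the mean of both. Il1a and Il1b leave the bottom of the scale with LPS, Il1rl1 and Il18bp are highest with LPS, Il1rn, Il33 and Il1r1 are lowest in the libraries labelled APRIL, and Il18 is listed at 0 throughout.

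Il1b encodes IL-1β, the secreted agonist that is cut from an inactive precursor. It was listed at 0.370 and 0 TPM with saline, 0 and 0.0673 with BAFF, 0.646 and 0.862 in the libraries labelled APRIL, 0.187 and 0 with norepinephrine, and 131 and 45.8 with LPS. Both LPS libraries lay far above the other 8, all of which were under 1 TPM. The difference between LPS and saline was 6.07 ± 0.43 (SE) on the log2(TPM + 1) scale (limma, adjusted p = 0.000644). It was 6.17 between LPS and norepinephrine and 6.25 between LPS and BAFF (limma, adjusted p = 0.000533 and 0.000698). Il1b entered the test only through its LPS values, so these p-values describe these libraries and support nothing beyond them. Within saline, BAFF and norepinephrine the order of the means cannot be read, because single libraries at 0 separate them.

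Il1a encodes IL-1α, an agonist that is active without cleavage and can remain in the cell or at its surface. Its levels were 0.0642 and 0.0980 TPM with saline, 0.162 and 0.162 with BAFF, 0.0911 and 0.0582 in the libraries labelled APRIL, 0.213 and 0.128 with norepinephrine, and 17.5 and 12.1 with LPS. As for Il1b, the LPS libraries alone were above 1 TPM. LPS exceeded saline by 3.85 ± 0.20 (SE; limma, adjusted p = 0.000330), norepinephrine by 3.73 and BAFF by 3.74 on the log2 scale (limma, adjusted p = 0.000218 and 0.000407). Il1a too entered the test only through its LPS values, and its p-values are read in the same way. Within the LPS group Il1b was the more abundant agonist transcript per length, at a mean of 88.4 ± 60.3 TPM (SD, n = 2) against 14.8 ± 3.84 for Il1a.

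Il1a and Il1b each overlap a gene on the other strand in exons, Gm14023 by 222 bases and Il1bos by 25 bases, and the strandedness of the libraries is not given in the sources used here, so reads from both strands cannot be told apart in these stretches. Gm14023 was listed at no more than 1.36 TPM and Il1bos at no more than 0.519 TPM in any library.

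Il33 encodes an alarmin stored in the nucleus and released from damaged cells. It was at 8.68 and 11.3 TPM with saline, 10.2 and 11.9 with BAFF, 8.73 and 9.02 with norepinephrine, 6.45 and 8.87 with LPS, and 4.97 and 6.53 in the libraries labelled APRIL. The LPS values overlapped those with norepinephrine, and the LPS difference from saline was -0.35 ± 0.19 (SE; 95% interval -0.79 to 0.10; limma, adjusted p = 0.453). Its difference between the libraries labelled APRIL and saline was called, at -0.70 ± 0.19 (SE; limma, adjusted p = 0.0155). Without APRIL replicate 1 that adjusted p was 0.0753 and without saline replicate 2 it was 0.103, so the call did not hold in either case.

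Il1rn encodes IL-1Ra, the antagonist that competes with both agonists. It was already abundant without stimulation, at 54.9 and 88.5 TPM with saline, above 94.4% of the listed genes by its group mean. With BAFF it was at 61.2 and 88.2, with LPS at 115 and 57.0, with norepinephrine at 30.5 and 42.9, and in the libraries labelled APRIL at 9.56 and 16.3 TPM. The LPS values enclosed those of saline, and the difference was 0.22 ± 0.41 (SE; 95% interval -0.73 to 1.16; limma, adjusted p = 0.872). Its sign is not fixed: without LPS replicate 1 it was -0.29, and without saline replicate 1 it was -0.12.

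Both norepinephrine libraries had less Il1rn than any saline, BAFF or LPS library, yet the difference from saline of -0.93 ± 0.41 (SE) gave no call (95% interval -1.87 to 0.02; limma, adjusted p = 0.291; 0.699% of all genes called). LPS against norepinephrine gave 1.14 for Il1rn (limma, adjusted p = 0.135). In the libraries labelled APRIL, Il1rn was lower than with saline by 2.39 on the log2 scale (SE 0.41; limma, adjusted p = 0.00163), the largest difference of any member in that comparison.

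Because TPM takes length into account, the antagonist can be set against the summed agonists in each library. Il1rn transcripts per Il1a plus Il1b transcript were 126 and 903 with saline, 379 and 384 with BAFF, 76.3 and 334 with norepinephrine, and 13.0 and 17.7 under the APRIL label. With LPS the ratio was 0.776 and 0.986, so the agonist sum exceeded the antagonist in both libraries. Outside LPS the denominators were all under 1 TPM. The ratio was computed from the members' own values and was not tested.

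**Figure D2:**
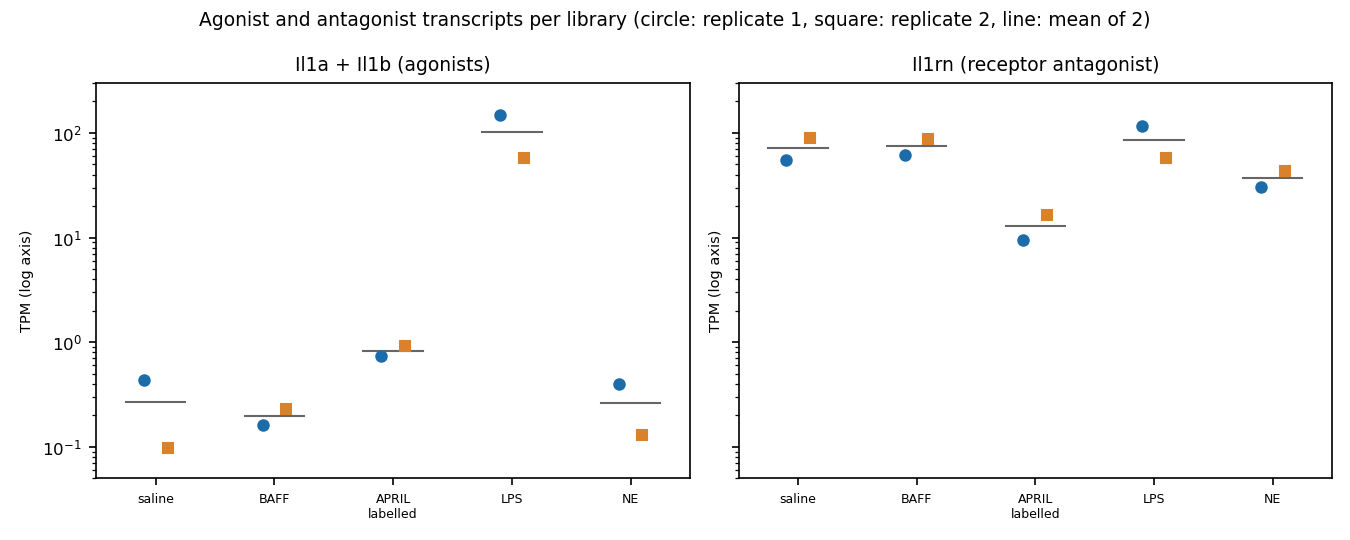
Summed TPM of Il1a and Il1b (left) and TPM of Il1rn (right) per library on a shared log axis; circles are replicate 1, squares replicate 2 and lines the mean of both. The agonist sum is 149 and 57.8 TPM with LPS and under 1 TPM in the other 8 libraries, while Il1rn with LPS lies on both sides of its saline values.

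Il18bp encodes a secreted protein that binds and neutralises IL-18. It was at 1.997 and 1.78 TPM with saline, 2.84 and 1.92 with BAFF, 1.93 and 3.01 with norepinephrine, 0.981 and 1.33 under the APRIL label, and 13.2 and 7.97 with LPS. Both LPS libraries were above all others. LPS exceeded saline by 1.97 ± 0.26 (SE; limma, adjusted p = 0.00752), norepinephrine by 1.72 (limma, adjusted p = 0.0110) and BAFF by 1.75 (limma, adjusted p = 0.0139). Leaving out LPS replicate 1 or either saline library ended the call against saline (limma, adjusted p between 0.0524 and 0.0743). Leaving out LPS replicate 1 or norepinephrine replicate 1 ended that against norepinephrine (0.0644 and 0.0771), and LPS replicate 1 or either BAFF library that against BAFF (0.0607 to 0.127). Il18bp shares 80 exonic bases with Numa1 on the opposite strand, which was at 29.8 and 27.5 TPM with saline and 29.7 and 32.5 with LPS.

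Il1rl1 encodes ST2, the IL-33 receptor, which exists as a membrane form and as a soluble decoy. It was at 10.6 and 12.1 TPM with saline, 8.91 and 14.7 with BAFF, 5.54 and 18.5 with norepinephrine, 22.9 and 28.8 under the APRIL label, and 53.8 and 107 with LPS. The LPS libraries were the highest, those labelled APRIL came next, and the other 3 groups overlapped. LPS exceeded saline by 2.64 ± 0.52 (SE; limma, adjusted p = 0.0347), norepinephrine by 2.77 (limma, adjusted p = 0.0213) and BAFF by 2.63 (limma, adjusted p = 0.0387).

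The call of Il1rl1 against saline was lost when any 1 of the 4 compared libraries was left out (limma, adjusted p between 0.0816 and 0.176) and with no filter on low values (0.0851). The call against BAFF was likewise lost without any 1 of its 4 libraries (0.0898 to 0.224), and that against norepinephrine without either LPS library or norepinephrine replicate 1 (0.0569 to 0.106). With no filter on low values the Il1rl1 calls against BAFF and norepinephrine were lost as well. The libraries labelled APRIL exceeded saline by 1.11 ± 0.52 (SE) without a call (95% interval -0.09 to 2.31; limma, adjusted p = 0.10). In the 4 libraries of that comparison alone the limma adjusted p was 0.00849.

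Il1rl1 was also set against Il33, its ligand gene, in each library. Il1rl1 transcripts per Il33 transcript were 1.22 and 1.08 with saline, 0.876 and 1.23 with BAFF, 0.635 and 2.05 with norepinephrine, 4.60 and 4.41 under the APRIL label, and 8.33 and 12.1 with LPS. The LPS and APRIL-labelled values lay above all others, and this ratio was not tested. Mast cells, lymphocytes and endothelial cells are known to carry ST2. The 7 mast cell markers summed to 1.43 and 2.74 TPM with saline and 1.56 and 1.12 TPM with LPS, most of it Kit, the 1 marker of the 7 that reached the filter. The 5 endothelial markers summed to 12.4 and 18.2 TPM with saline and 9.63 and 10.05 TPM with LPS. The 10 lymphocyte markers summed to 1.05 and 2.57 TPM with saline and 0.972 and 1.78 TPM with LPS. Of the lists that marked the bulk of the cultures, fibroblast and progenitor markers had 3 of 7 tested genes higher with LPS and 0 lower, beside 3.80% of all genes. These were Dcn by 2.59, Pi16 by 1.29 and Pdgfra by 0.92 on the log2 scale (limma, adjusted p = 0.00712, 0.00794 and 0.038). Among the other tested genes of the list, Ly6a was higher (0.70), and Cd34 (-0.37), Col1a1 (-0.13) and Col3a1 (-0.10) were lower, all without a call. Pi16 reached 1 TPM in the LPS libraries alone (3.05 and 2.60), so it entered the test only through them and the count is a description. Fibroblast and progenitor markers summed to 9943 and 8764 TPM with saline and 10210 and 9488 TPM with LPS, most of it Col1a1 and Col3a1. Adipocyte markers had 0 of 9 tested genes called by limma (0 higher and 4 lower before adjustment), beside the same 3.80%. They summed to 7643 and 8804 TPM with saline and 5111 and 5655 TPM with LPS, most of it Fabp4. The part of any of these lists in the members' differences was not tested.

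Il1r1 encodes the signalling receptor of both agonists and was the highest of the 4 receptor chains by TPM in 9 of the 10 libraries, all but LPS replicate 2, where Il1rl1 was higher. It was at 72.2 and 81.0 TPM with saline, 80.2 and 88.0 with BAFF, 65.2 and 92.9 with LPS, 49.7 and 68.0 with norepinephrine, and 38.0 and 38.4 in the libraries labelled APRIL. The LPS values enclosed those with saline, and both norepinephrine libraries were below both saline libraries. LPS differed from saline by 0.03 ± 0.20 (SE; 95% interval -0.43 to 0.48; limma, adjusted p = 0.980), with a sign that turned without LPS replicate 2 (-0.23) or saline replicate 1 (-0.056). Norepinephrine differed from saline by -0.39 ± 0.20 (SE; 95% interval -0.84 to 0.06; limma, adjusted p = 0.344). The libraries labelled APRIL differed from saline by -0.98 ± 0.20 (SE; limma, adjusted p = 0.00336).

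Il1rap encodes the chain that the IL-1 and IL-33 receptors both need for signalling. It was at 6.65 and 7.17 TPM with saline, 6.56 and 6.59 with norepinephrine, 8.73 and 8.76 with BAFF, 6.75 and 11.7 in the libraries labelled APRIL, and 12.7 and 13.8 with LPS. The LPS libraries were the highest of the 10. The difference of LPS from saline, 0.85 ± 0.21 (SE), missed the threshold (95% interval 0.37 to 1.33; limma, adjusted p = 0.0744), and without the libraries labelled APRIL it passed (limma, adjusted p = 0.00475). LPS exceeded norepinephrine by 0.91 (limma, adjusted p = 0.0398), a call that was lost without any 1 of the 4 compared libraries (0.120 to 0.165), with no filter on low values (0.0863), with mitochondrially encoded genes left out (0.0506) and with a 1.5-fold minimum. The libraries labelled APRIL differed from saline by 0.33 (limma, adjusted p = 0.213), a difference of 0.68 that was called without APRIL replicate 1 (0.0022) and of -0.03 without APRIL replicate 2. Against BAFF the difference was 0.55 (limma, adjusted p = 0.224), and without the libraries labelled APRIL the adjusted p was 0.0204. Il1rap shares 552 exonic bases with Gm20319 on the other strand, which was at 0.287 and 1.44 TPM with LPS and at no more than 0.443 TPM elsewhere.

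Il1r2 encodes the decoy receptor and was the lowest of the receptor chains in every library. It was at 1.02 and 1.63 TPM with saline, 1.11 and 1.04 with BAFF, 0.690 and 2.23 in the libraries labelled APRIL, 0.680 and 1.22 with norepinephrine, and 1.35 and 2.46 with LPS. The LPS values overlapped those with saline and under the APRIL label, and lay above those with BAFF and norepinephrine. The LPS difference from saline was 0.31 ± 0.34 (SE; 95% interval -0.48 to 1.09; limma, adjusted p = 0.749).

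**Figure D3:**
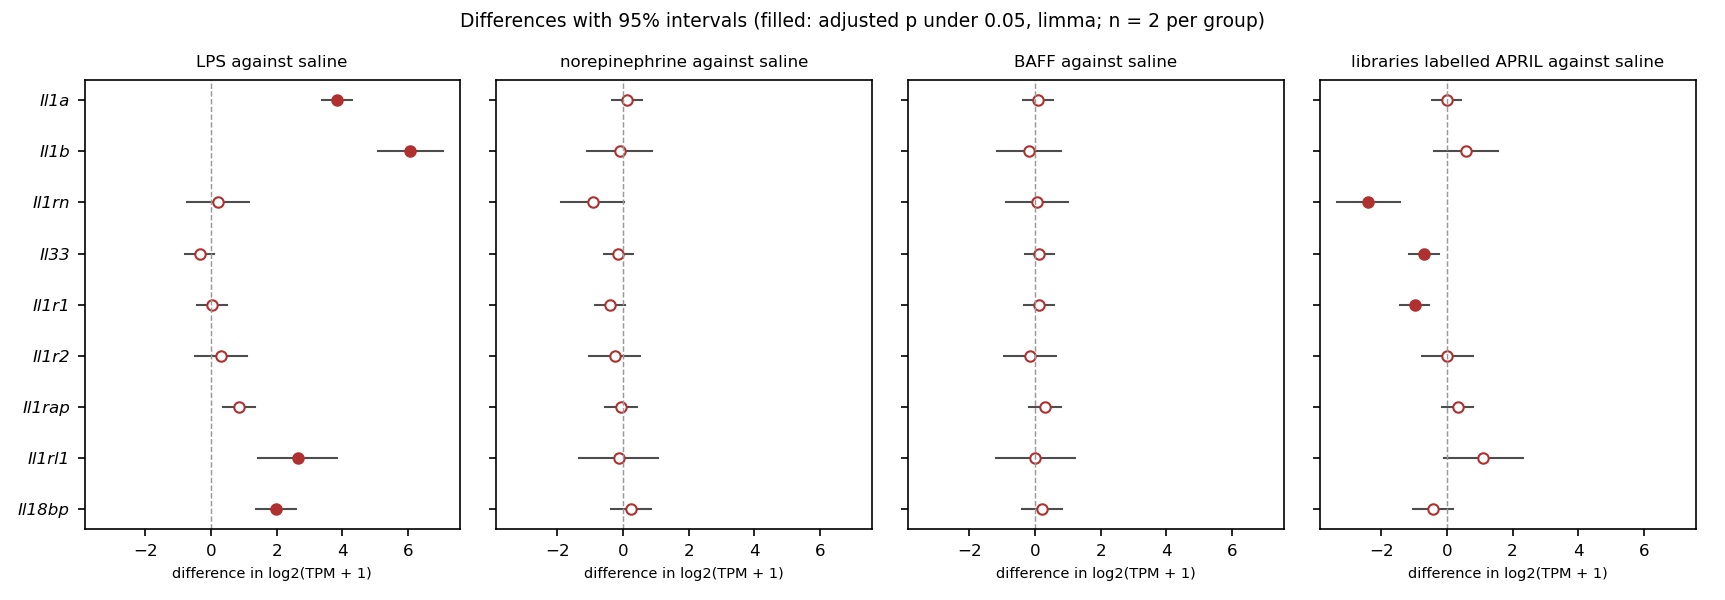
Differences in log2(TPM + 1) of the 9 tested members in the 4 comparisons with saline, each with its 95% interval from limma (2 libraries per group); filled points have an adjusted p under 0.05. With LPS 4 members are filled, all above 0; with norepinephrine and BAFF none is filled; in the libraries labelled APRIL Il1rn, Il33 and Il1r1 are filled, all below 0.

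LPS was then set directly against the other treated groups, to ask whether the levels with LPS differ from those after another treatment. LPS against norepinephrine called 5 of the 9 tested members, all higher (Il1a, Il1b, Il1rap, Il1rl1 and Il18bp), where 7.81% of all genes were called. LPS against BAFF called 4, all higher (Il1a, Il1b, Il1rl1 and Il18bp), where 3.36% of all genes were called. Il1a and Il1b are in both counts, having entered the test only through their LPS values, so here too the counts are a description of the 9. These comparisons share the LPS libraries with each other and with the comparison with saline, so the values stand side by side and are not independent. In BAFF against saline, which called 2 of all tested genes (0.0141%), the member difference with the smallest p was that of Il1rap, at 0.30 (95% interval -0.18 to 0.78; limma, adjusted p = 0.996). For Il1r1 the BAFF difference was 0.13 (95% interval -0.32 to 0.59; limma, adjusted p = 0.996), an interval that leaves room for changes of either sign.

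Macrophage markers were listed at unequal levels between the libraries, and macrophages are a known source of IL-1β and IL-1Ra. The 12 macrophage markers summed to 1351 and 451 TPM with saline, 1151 and 524 with BAFF, 516 and 355 in the libraries labelled APRIL, 1662 and 446 with LPS, and 1331 and 308 with norepinephrine. Most of this sum was Lyz2, at 1018 and 312 TPM with saline and 1192 and 304 with LPS. Replicate 1 had the higher level for 11 of the 12 markers with saline, for 12 with BAFF, LPS and norepinephrine each, and for 7 in the libraries labelled APRIL. Ptprc, which encodes CD45, was at no more than 0.218 TPM in any library, whereas Adgre1, which encodes F4/80, was at 29.8 and 9.23 TPM with saline and 68.8 and 21.6 with LPS. C1qa, of the same list, went the other way, from 47.8 and 10.9 TPM with saline to 26.9 and 2.75 with LPS.

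Within the LPS group, Il1a, Il1b, Il1rn and Il18bp were higher in replicate 1, as the marker sum was, and the other 5 tested members, Il33, Il1r1, Il1r2, Il1rap and Il1rl1, were higher in replicate 2. With saline, BAFF and norepinephrine, Il1rn was instead higher in replicate 2, against the order of the marker sum. LPS called 0 of the 11 tested macrophage markers by limma (3 higher and 0 lower before adjustment at 0.05), beside 3.80% of all genes, with a median difference of -0.04. Those 3 were Cd14, at 25.01 and 12.5 TPM with saline and 98.1 and 40.6 with LPS, Fcgr1 and Itgam. Fcgr1 passed the filter on low values through the LPS libraries alone (3.49 and 1.10 TPM). Of the rest, Adgre1 (1.16) and Lyz2 (0.095) were higher on the log2 scale. C1qa (-1.23), C1qb (-1.16), C1qc (-1.16), Csf1r (-0.19), Cd68 (-0.17) and Mrc1 (-0.04) were lower. The part of the macrophage markers in the members' differences was not tested.

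Neutrophil markers, the other myeloid list, summed to between 1.998 and 7.65 TPM in the 8 libraries without LPS and to 29.9 and 29.5 with LPS. With LPS most of this sum was S100a8 (19.5 and 13.9 TPM) and Camp (7.91 and 13.9 TPM). Of the 10 markers 3 were tested, and LPS called 2 higher and 0 lower, beside 3.80% of all genes. S100a8 rose by 3.33 and Camp by 2.91 on the log2 scale (limma, adjusted p = 0.0034 and 0.00678). The third, Cxcr2, differed by 0.08 (limma, adjusted p = 0.928). Without LPS, Camp reached 1 TPM in BAFF replicate 1 alone (1.65), so it entered the test only through its LPS values. Among the markers not tested, Csf3r was at 0.168 and 0.0987 TPM with saline and 1.64 and 0.415 with LPS. Elane went the other way, from 0.462 and 0.445 TPM with saline to 0.0368 and 0.169 with LPS. Ly6g, Mpo and Ngp were at no more than 0.491 TPM in any library, and S100a9 and Retnlg were listed at 0 in every library. The part of the neutrophil markers in the members' differences was not tested.

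**Figure D4:**
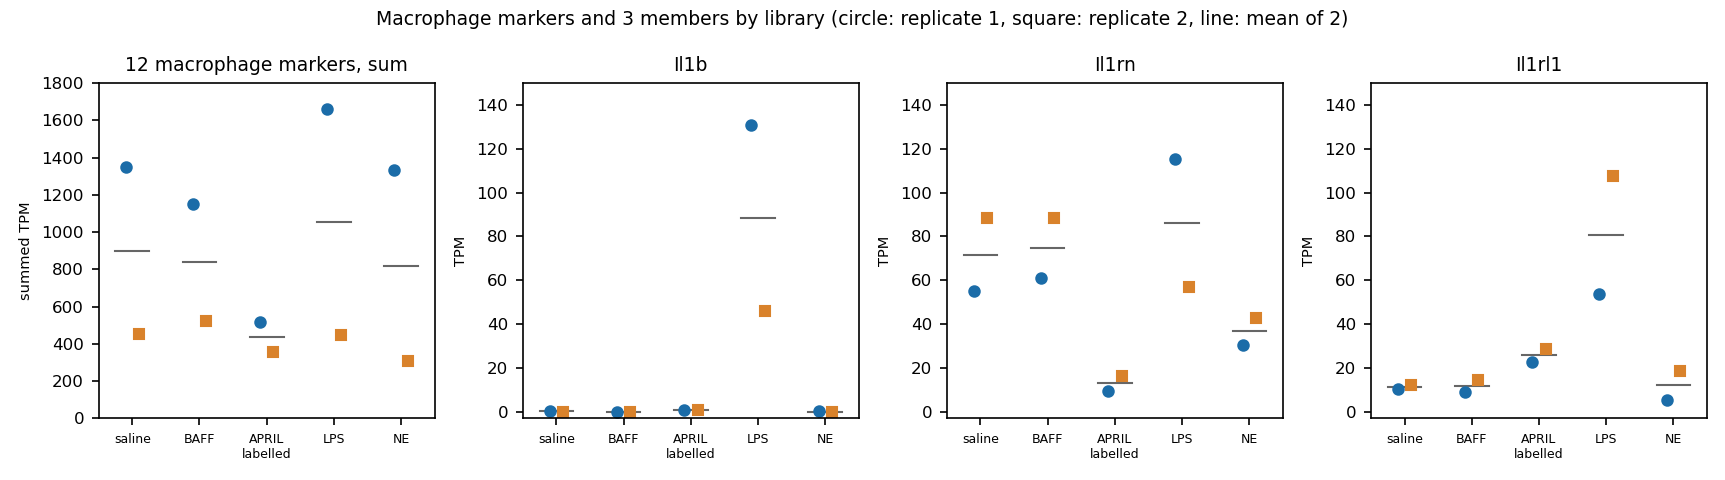
Summed TPM of 12 macrophage markers, most of it Lyz2, and TPM of Il1b, Il1rn and Il1rl1 in each library, on linear axes from about 0; circles are replicate 1, squares replicate 2 and lines the mean of both. The marker sum is higher in replicate 1 of every group, and with LPS Il1b and Il1rn share that order while Il1rl1 has the reverse.

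Genes whose products mature and release the ligands were counted as a further list. IL-1β and IL-18 are cut by caspase-1 in inflammasomes and leave the cell through gasdermin D pores. Of the 14 genes of that list 10 were tested, and limma called 0 with LPS (5 higher and 0 lower before adjustment), beside 3.80% of all genes. At that share, 0 of 10 is no result about the list. The genes closest to the threshold, named after their values were seen, were Casp4, a sensor of intracellular LPS (1.28, limma, adjusted p = 0.0535), Gsdmd, the pore protein (0.77, limma, adjusted p = 0.069), and Nlrp3, an inflammasome sensor (1.21, limma, adjusted p = 0.0855). Nlrp3 was at 1.19 and 0.964 TPM with saline and 5.06 and 2.81 with LPS. Casp1 was at 11.4 and 9.55 TPM with saline and 16.9 and 10.4 with LPS, an overlap of the groups. Against norepinephrine, LPS called 2 of the 10, both higher, beside 7.81% of all genes, Gsdmd (0.92, limma, adjusted p = 0.027) and Nlrp3 (1.35, limma, adjusted p = 0.0411).

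Downstream of the receptors, LPS called 5 of 20 signalling genes, all tested, 5 higher and 0 lower, beside 3.80% of all genes, with a median difference of 0.20. Irak3, a kinase-like inhibitor of the receptor complex, went from 11.97 and 11.7 TPM to 50.1 and 44.6 (1.91, limma, adjusted p = 0.000469). Zc3h12a, which encodes an RNase that degrades cytokine mRNA, went from 10.9 and 6.96 to 64.5 and 69.7 (2.81, limma, adjusted p = 0.0011). Nfkbia, the gene of the NF-κB inhibitor IκBα, rose by 2.53, and Tnfaip3, which encodes the ubiquitin-editing enzyme A20, rose by 2.39 (limma, adjusted p = 0.0124 and 0.0139). The remaining call was Rela, a subunit of NF-κB, at 0.55. Myd88, Irak1, Irak4 and Traf6 gave no call, with differences between -0.13 and 0.31, and neither did Tollip, which encodes another inhibitor of the receptor complex (0.02, limma, adjusted p = 0.956).

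Genes known to respond to IL-1 were all higher with LPS, 10 of 10, beside 3.80% of all genes. Their median difference was 4.36, against -0.01 over all genes tested. This and the other gene lists were chosen with earlier results of these data known, so their counts and medians describe the listed genes only. LPS reaches many of these response genes through its own receptor, TLR4, which also uses MyD88 and IRAK kinases. A response to IL-1 and one to LPS cannot be told apart in these libraries. The chemokine gene Cxcl1 went from 2.56 and 3.26 TPM to 209 and 217 (5.78, limma, adjusted p = 0.000414). Csf3, which encodes the granulocyte growth factor G-CSF, was at 0 and 0.0293 TPM with saline and 17.0 and 9.99 with LPS. It passed the filter on low values through the LPS libraries alone, so its place in the count is a description only. The cytokine gene Il6 went from 3.98 and 6.06 to 177 and 102 TPM, and Nfkbiz, which encodes an inducible nuclear cofactor of NF-κB, from 7.92 and 6.996 to 24.6 and 27.3. Norepinephrine and BAFF called 0 genes in the maturation, signalling and response lists by limma, beside 0.699% and 0.0141% of all genes. Before adjustment norepinephrine had 1 higher in the maturation list, 2 higher in the signalling list and 1 in each direction in the response list, and BAFF had 1 higher, in the signalling list.

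The same lists were counted in the libraries labelled APRIL. Against saline 15 of the 20 signalling genes were higher and 0 lower. The smallest p-values were those of Rela (1.37) and Chuk, which encodes the IκB kinase IKKα (1.97; limma, adjusted p = 3.89e-05 and 7.85e-05), and the largest differences those of Nfkbia (3.28) and Tnfaip3 (2.50). Of the 5 signalling genes called with LPS, 4 were also called higher here (Nfkbia, Tnfaip3, Zc3h12a and Rela), in a comparison that shares the saline libraries. Of the maturation genes 3 were higher and 3 lower. Gsdmd was lower by 1.42 and Txnip, which encodes a thioredoxin-binding protein linked to NLRP3, was higher by 2.33 (limma, adjusted p = 0.000424 and 0.000649). Of the response genes 5 were higher (Cxcl1, Nfkbiz, Il6, Cxcl2 and Ptgs2) and 1 lower (Lcn2), with Cxcl1 at 77.8 and 189 TPM and Nfkbiz at 21.2 and 20.1. Il1b was below 1 TPM in both of these libraries. All these counts stand beside the 58.1% of all genes called in this comparison.

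**Figure D5:**
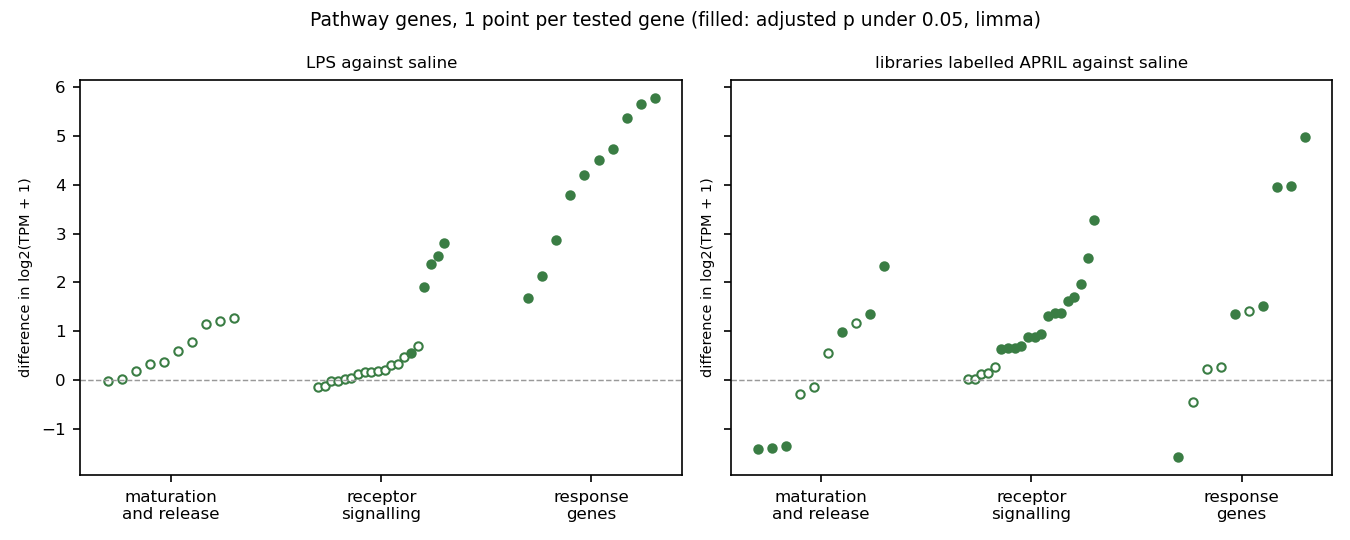
Differences in log2(TPM + 1) from saline for each tested gene of the maturation and release, receptor signalling and response lists, sorted within each list, for LPS (left) and the libraries labelled APRIL (right); filled points have a limma adjusted p under 0.05. With LPS 0 maturation, 5 signalling and all 10 response genes are filled, and in the libraries labelled APRIL filled points lie on both sides of 0 in the maturation and response lists.

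Neighbours of the members in the gene clusters were mostly at low TPM. Of the 6 other receptor genes, Sigirr, Il1rapl1 and Il1rapl2 lie outside the clusters, on chromosomes 7 and X. Il1rl2, the interleukin 36 receptor gene between Il1r1 and Il1rl1, was the 1 of the 6 that could be tested. It was at 17.5 and 20.8 TPM with saline, 20.4 and 22.2 with BAFF, 16.2 and 22.4 with norepinephrine, 27.4 and 29.6 with LPS, and 9.95 and 9.18 in the libraries labelled APRIL. The LPS libraries were the highest, without a call (0.55, limma, adjusted p = 0.125), and the lower level in the libraries labelled APRIL was called (-0.93, limma, adjusted p = 0.00179). Il18r1 and Il18rap, the IL-18 receptor genes just beyond Il1rl1, were at no more than 0.135 and 0.800 TPM. Of the 5 other ligand genes beside Il1rn, 2 were tested, and 0 were called by limma with LPS (0 higher and 1 lower before adjustment), beside 3.80% of all genes. Il36g was at 1.21 and 0.799 TPM with saline and 2.58 and 1.23 with LPS. Il1f10 was at 0.393 and 2.21 TPM with saline and at 0 and 0.120 with LPS.

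The genes whose levels ran most like those of 4 members over the 10 libraries were found by the root mean square distance of log2(TPM + 1) after centring each gene. Nearest to Il1b was the chemokine gene Cxcl3 (distance 0.207), at 151 and 57.7 TPM with LPS and at no more than 0.564 elsewhere. The third, Ccl5 (0.574), also a chemokine gene, was at 327 and 113 TPM with LPS and at no more than 2.75 elsewhere, and the second was an Ensembl gene without a symbol. Nearest to Il1rn were Dcstamp (0.362), Hmgn3 (0.373) and Lurap1l (0.380). By group mean all 3 were lowest under the APRIL label and next lowest with norepinephrine, as Il1rn was. Lurap1l was at 8.14 and 10.2 TPM with saline, at 4.95 and 5.40 after norepinephrine, and at 0.223 and 0.505 TPM under the APRIL label. Nearest to Il33 were Pycrl (0.0865), Tie1 (0.0933) and Rtel1 (0.106), and nearest to Il1r1 were Mlec (0.0676), Adgrl2 (0.0691) and Phf5a (0.0870). Small distances come easily to genes that vary little, as Il33 and Il1r1 do, and these are descriptions of 10 libraries with no test.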

How the data were processed

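Transcript levels of 10 libraries (5 treatments, 2 libraries each) were taken from the authors' deposited TPM per Ensembl gene, 1 value per gene and library, per the file headers. Per the submitters' processing notes they come from kallisto (version not given) and the mm10 build. The annotation release, the summing of transcripts to genes and any filter are not given in the sources used here. Library totals were 953553 to 964726 TPM, so part of each library is not listed, and depth is unknown.

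Symbols and positions were taken from GENCODE M21, which matched 27458 of 28987 identifiers, and promoters from RefSeq. The 14166 genes that reached 1 TPM in 2 libraries or more went into limma 3.58.1 (R 4.3.3) as log2(TPM + 1). The model had 5 group means over all 10 libraries, a mean-variance trend and 5 residual degrees of freedom. P-values were adjusted by Benjamini-Hochberg within each of 6 comparisons. A group of 2 is thereby taken to vary like the others, the libraries labelled APRIL included. An exact permutation of 2 against 2 libraries cannot go below a two-sided p of 0.333 and was not used. The procedure was tested on simulated data.

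Members and gene lists were chosen with earlier results of these data known. All members are named in the text, with up to 4 called genes of smallest p per pathway list for LPS against saline and up to 2 for other comparisons with saline, the neighbours in the gene clusters, and the 3 nearest genes to Il1b, Il1rn, Il33 and Il1r1. Exceptions are marked in the text or were named as markers. Alternatives were pseudocounts of 0.5 and 0.1, no filter, a filter at 5 TPM, the 4 compared libraries alone, the libraries labelled APRIL left out, a replicate block, each library left out, median-ratio scaling, the 13 mitochondrially encoded genes left out and a 1.5-fold minimum. Leaving out a library while keeping the tested genes was added after the values were seen. Python 3.11.15 and matplotlib 3.10.9 made the figures.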

Additional observations from a re-analysis of the deposited data

How the results depend on the processing

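Counts of called members moved by over 1.5 times in these settings. With a 1.5-fold minimum 2 members were called in LPS against saline, 2 in LPS against norepinephrine and 2 in LPS against BAFF (Il1a and Il1b each time), and 1 in the libraries labelled APRIL against saline (Il1rn). LPS against norepinephrine called 3 with no filter on low values and 3 with the 4 compared libraries alone. Leaving out 1 library at a time gave 0 to 3 in LPS against saline, 0 to 4 in LPS against norepinephrine, 0 to 3 in LPS against BAFF and 2 to 3 in the libraries labelled APRIL against saline. The lowest counts arise without an LPS library, where Il1a and Il1b no longer pass the filter and 7 members are tested. With the tested genes kept, both were called in these cases, but the left-out LPS library then still admits them to the test, so this is no sign of stability. Il1rn in LPS against saline ranged from -0.29 to 0.72 over the left-out libraries, turning sign without LPS replicate 1 (-0.29) and saline replicate 1 (-0.12). Il1r1 in LPS against saline ranged from -0.23 to 0.28, turning sign without LPS replicate 2 (-0.23) and saline replicate 1 (-0.056), and was -0.059 with mitochondrially encoded genes left out. Il1rap in the libraries labelled APRIL against saline ranged from -0.029 (without APRIL replicate 2) to 0.68 (without APRIL replicate 1). The cause of these changes was not tested. Median-ratio scaling moved the median of all genes from 0.11 to -0.01 in BAFF against saline, from 0.08 to -0.03 in the libraries labelled APRIL against saline and from -0.12 to 0.00 in LPS against BAFF. With the replicate number as a block, 4 members were called in LPS against saline, 5 in LPS against norepinephrine, 4 in LPS against BAFF, 4 in the libraries labelled APRIL (Il1rl1 added, limma, adjusted p = 0.0198) and 0 with norepinephrine and BAFF. Same-numbered libraries deviated together at correlations of 0.272 to 0.479 outside the APRIL label and -0.108 to 0.026 with it, and they share only a number by the labels. Over the member differences that were tallied, 420 values kept direction and side of the threshold, 66 lost a call, 7 gained one and 11 turned sign. The tally took only part of the member differences. Most of those for norepinephrine and BAFF against saline, Il1a and Il1b among them, were left out. Counts over all genes moved as well. Without the libraries labelled APRIL they were 946 for LPS against saline (539 with them), 854 for norepinephrine against saline (99), 2192 for LPS against norepinephrine (1107) and 920 for LPS against BAFF (476). Leaving out 1 compared library gave 112 to 374, 0 to 1, 217 to 452 and 80 to 394 for these. Norepinephrine against saline called 43 with a pseudocount of 0.1, 55 with no filter, 264 with the 4 libraries alone, 167 with the replicate block, 60 without mitochondrially encoded genes and 0 with a 1.5-fold minimum. BAFF against saline called 0 with a pseudocount of 0.1, 12 with no filter, 0 with the 4 libraries alone and up to 4 with a library left out, against 2. LPS against norepinephrine called 719 with no filter. The 1.5-fold minimum left 107, 126 and 99 in the LPS comparisons (saline, norepinephrine, BAFF) and 3389 of 8236 for the libraries labelled APRIL. Depth is unknown, so no limit can be set for Il18 or for values near 0.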
